A study of Mus musculus with 9 samples.

Results

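Box C/D small nucleolar RNAs (snoRNAs) encoded outside the Gas5 gene were described in small RNA sequencing of Sfpq and Ago2 immunoprecipitates. They were taken from 2 deposited tables as every entry named SNORD whose position lies outside the 5 kb of chromosome 1 that hold Gas5. This gave 119 of 1939 small RNAs in the Sfpq table and 120 of 1825 in the Ago2 table, under 78 different names. The only entry of 1 table alone was SNORD125, which the Ago2 table listed at 1.31 in the precipitate and at 0 in the input.

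The study asked which small RNAs associate with Sfpq, a splicing factor of the nucleoplasm, and with Ago2, the Argonaute protein that carries miRNAs. RNA immunoprecipitation (RNA-IP) of the endogenous proteins gave 3 Sfpq and 3 Ago2 libraries, here called Sfpq IP and Ago2 IP, set against 3 libraries of input RNA, all from mouse cells with no other treatment or genotype named. RNA-IP with a control antibody was not analysed here, so RNA bound by a protein and RNA carried along with the beads or the complex cannot be told apart. The labels call the cells RAW 264.7, a macrophage-like line, yet also name stem cells as the source, and the design text names P19, an embryonal carcinoma line. The study's own text gives the macrophage-like line for the small RNA sequencing of the precipitates. In the input, 6 miRNAs known from myeloid cells or abundant in them, among them miR-223-3p and miR-155-5p, stood between 90.2 and 235118 in the Sfpq table. The 3 listed members of the pluripotency clusters miR-290 and miR-302 were at 0 there. None of the 120 snoRNAs belonged to SNORD113, SNORD114, SNORD115 or SNORD116, the imprinted clusters known from brain.

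Each table holds 1 pooled, normalised signal for the IP and 1 for the input, so neither the spread between the 3 libraries of a group nor a test can be had from it. The signal summed to 9957738 in the Sfpq IP and 6449023 in its input, against 9809388 in the Ago2 IP and 7299085 in its input. A signal of 20 stood for about 68.5 reads in the Sfpq IP and 59.3 in its input, and for about 78.5 reads in the Ago2 IP and 51.9 in its input. Errors given with log2 ratios below are the standard error that these reads alone allow. They cover counting error only, had a median of 0.085 for Sfpq and 0.081 for Ago2, and leave out all variation between cultures and precipitations.

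Box C/D snoRNAs are short nuclear RNAs that most often lie in the introns of other genes and are released from the spliced intron. They carry a C box near the 5′ end and a D box near the 3′ end, on which fibrillarin, Nop56, Nop58 and Snu13 assemble. The stretch upstream of the D box, or of an inner copy of it, pairs with ribosomal RNA (rRNA) or U6 small nuclear RNA and marks 1 nucleotide for 2′-O-methylation by fibrillarin. A few, such as SNORD14 (U14) and SNORD22 (U22), act in cleavage of the rRNA precursor, and those with no known rRNA or snRNA partner are called orphans. Some snoRNAs are also cut to shorter RNAs, and some of these have been catalogued as miRNAs.

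The name fitted the sequences. The core of the C box, TGATG, stood in the first 30 bases of 105 of the 116 members whose sequence was read (90.5%), and CTGA, the D box, in the last 20 bases of 115 (99.1%). Only the sense strand was searched, and the motifs do not overlap. Both were present in 104 members (89.7%), against 1 of 155 box H/ACA snoRNAs (0.645%), which guide pseudouridylation and have other boxes. The members spanned 63 to 145 bases with a median of 78. In the GENCODE vM21 annotation of GRCm38 (mm10), 112 had the coordinates of an annotated small RNA gene, and 114 lay inside a host gene on the same strand, with 62 hosts in all. Of these, 54 lay wholly in an intron and 60 also overlapped an exon of at least 1 transcript of the host. Ribosomal protein genes held 29 members, non-coding host genes such as Snhg1 and Zfas1 held 25, and genes of snoRNP, nucleolar or translation proteins held 23. The last class is a fixed list of genes that takes in Hspa8, a heat shock cognate gene. It leaves out Eif4g1, Nop53, Ppan and Tsr1, which could be placed there and fall among the other protein-coding genes. Other protein-coding genes held 37 and no host gene was annotated for 6.

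The sequences of 3 snoRNAs with high and 3 with low IP ratios are shown because they differ in length, with 68 to 78 bases in the high and 126 to 145 in the low ones. They were chosen for this, and length did not set every rank. SNORD12 with 93 bases had an Sfpq ratio about as high as those of SNORD18 and SNORD53. SNORD62 with 85 bases in the Sfpq IP and SNORD93 with 71 bases in the Ago2 IP were lower than SNORD22. Each is the GRCm38 sequence of the annotated snoRNA, 5′ to 3′, and capitals mark TGATG and CTGA where they were found. SNORD101 (chr10:23786470-23786543, minus strand, in Rps12), SNORD18 (chr9:64175048-64175115, plus strand, in Rpl4) and SNORD53 (chr17:71640879-71640956, plus strand, in Wdr43) had high ratios. SNORD15 (chr7:99479563-99479707, minus strand, in Rps3), SNORD94 (chr6:71882557-71882693, minus strand, in Ptcd3) and SNORD22 (chr19:8725866-8725991, plus strand, in Snhg1) had low ratios.
SNORD101: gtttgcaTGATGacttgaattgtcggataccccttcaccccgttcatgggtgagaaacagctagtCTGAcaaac
SNORD18: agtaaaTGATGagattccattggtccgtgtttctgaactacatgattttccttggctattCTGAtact
SNORD53: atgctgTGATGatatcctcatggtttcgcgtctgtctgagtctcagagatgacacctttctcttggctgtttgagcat
SNORD15: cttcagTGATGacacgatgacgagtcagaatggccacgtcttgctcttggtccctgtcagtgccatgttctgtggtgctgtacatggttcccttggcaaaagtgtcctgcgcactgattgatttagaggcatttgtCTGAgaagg
SNORD94: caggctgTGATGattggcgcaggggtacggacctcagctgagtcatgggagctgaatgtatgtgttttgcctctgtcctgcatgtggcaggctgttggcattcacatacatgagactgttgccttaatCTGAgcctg
SNORD22: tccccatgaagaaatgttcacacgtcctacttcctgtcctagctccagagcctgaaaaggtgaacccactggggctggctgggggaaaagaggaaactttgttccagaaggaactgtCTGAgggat

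Sfpq IP held a larger share of snoRNA signal than its input. The 119 members summed to 95652 in the Sfpq IP (0.961% of all small RNA signal) and 32452 in the input (0.503%), while mature miRNAs made up 96.5% of the IP and 84.7% of the input. Of the 119, 103 had a mean of IP and input of at least 20 and were given a ratio, 1 of them only through the IP and 9 only through the input. Their log2 ratios of IP to input had a median of 0.59 and ran between -4.45 and 3.81. A total of 47 were at least 2-fold above input, where 19.0% of the 777 small RNAs with a ratio were, and 24 were at least 2-fold below input, where 45.6% of all were. The median over all 777 was -0.57. Over mature miRNAs it was 0.44, over box H/ACA snoRNAs -0.94, over the 7 box C/D snoRNAs of Gas5 2.02 and over tRNAs -3.13. The level of the whole set depended on scaling: with each group scaled to its total signal, which lowers every Sfpq ratio by 0.63 on the log2 scale, the median was -0.04, with 27 members above and 37 below 2-fold. With the median over all small RNAs set to 0 it was 1.16, with 54 above and 11 below. The order of the members was the same under each.

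The Sfpq IP signal was concentrated in a few snoRNAs. SNORD101, an orphan in human, had 18922 in the Sfpq IP, against 1346 in its input (log2 3.81 ± 0.024), and made up 19.8% of all the members' IP signal, against 4.15% of their input. The 5 most abundant members held 46.8% of the IP signal and 26.6% of the input signal. SNORD43, in an intron of Rpl3, directs methylation of 18S rRNA in human and had 8466 in the Sfpq IP, against 1848 in the input (2.20 ± 0.021). SNORD102, in Rpl21, a guide for 28S rRNA, had 6382 in the IP, against 929 in the input (2.78 ± 0.029). The most abundant member of the input, a SNORD58 copy in Rpl17 at chr18:75001880-75001944, had 5520.0 in the IP, against 2376 in the input (1.22 ± 0.02). It led the input, while SNORD101, SNORD43 and SNORD102 stood above it in the IP. SNORD30, in Snhg1 and a guide for 28S rRNA, had 5475 in the IP, against 1643 in the input (1.74 ± 0.023), and with Ago2 it had 4636 in the IP, against 1913 in the input (1.28 ± 0.023).

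Other members stood high with Sfpq, most of them guides for rRNA methylation. SNORD12 at chr2:167063473-167063565, in the non-coding gene Zfas1, had 4025 in the Sfpq IP, against 486 in the input (3.05 ± 0.04). SNORD18 at chr9:64175048-64175115, in Rpl4, had 4796 in the IP, against 585 in the input (3.04 ± 0.036). SNORD56, in Nop56, the gene of a core box C/D protein, had 591 in the IP, against 78.9 in the input (2.90 ± 0.1). Each of these ratios was over 20 times its counting error, which leaves out variation between cultures and precipitations. SNORD53 at chr17:71640879-71640956 had 526 in the IP, against 70.4 in the input (2.90 ± 0.105). SNORD19B, in Gnl3, the gene of nucleostemin, had 2107 in the IP, against 348 in the input (2.60 ± 0.048). SNORD121A at chr4:41211498-41211586, in an intron of Ubap2, had 627 in the IP, against 119 in the input (2.39 ± 0.083).

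The snoRNAs lowest with Sfpq were mostly longer than the median of 78 bases. SNORD15, a guide for 28S rRNA and with 145 bases the longest member, had 3.66 in the Sfpq IP, against 80.005 in the input (-4.45 ± 0.418). The 3 copies of SNORD62, which is known as a guide for 18S rRNA, had 27.1, 27.1 and 29.6 in the IP, against 335, 330.4 and 338 in the input. SNORD94, a guide for U6 snRNA, had 8.07 in the IP, against 72.6 in the input (-3.17 ± 0.291). All 5 of these lay far below the input. SNORD22, with 126 bases, had 28.1 in the IP, against 168 in the input (-2.58 ± 0.161). The SNORD93 copies at chr5:23710991-23711061 and chr5:23852210-23852280 were an exception in length, with 71 bases each. The copy at chr5:23710991-23711061 had 90.006 in the IP, against 532 in the input, and the other had 141 in the IP, against 706 in the input. Both lay far below the input with Ago2 too, at log2 -2.56 ± 0.08 and -2.43 ± 0.067.

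**Figure D1:**
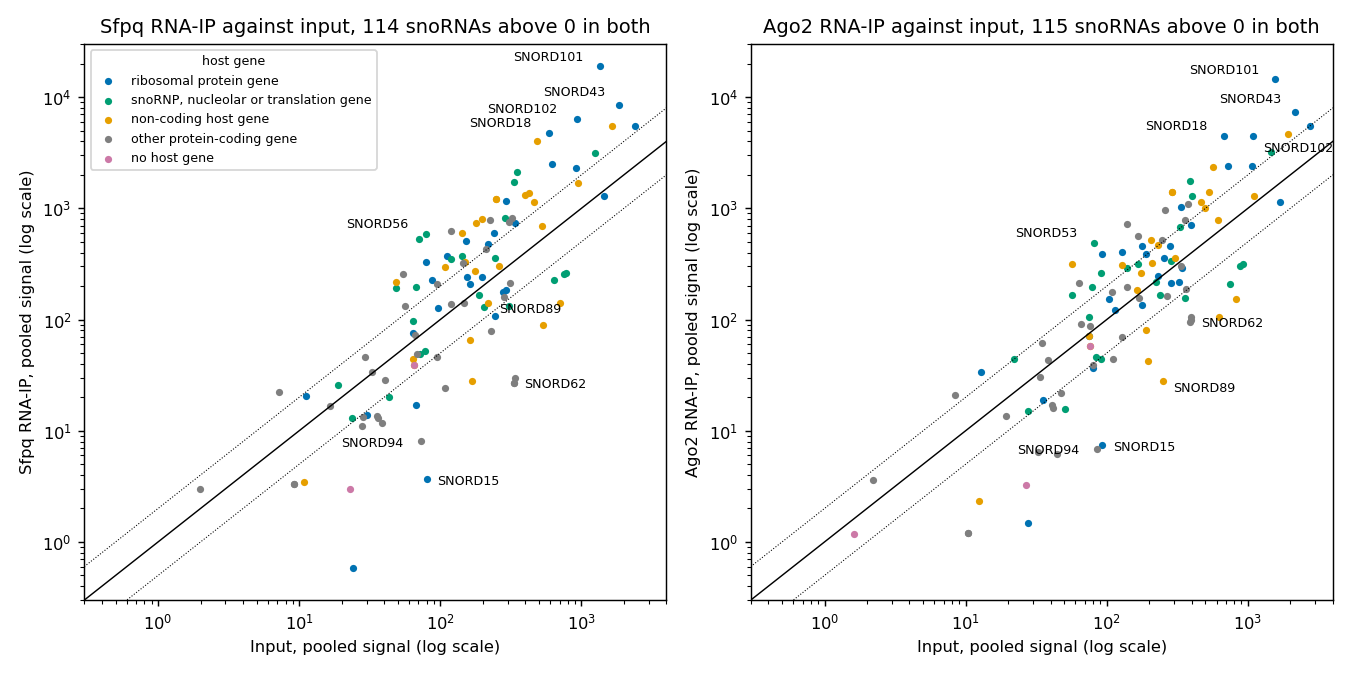
Pooled signal of each snoRNA in the IP (vertical axis, log scale) against the input (horizontal axis, log scale), Sfpq on the left and Ago2 on the right, for members above 0 in both. The solid line marks equal values, the dotted lines 2-fold, and colour the class of host gene. SNORD101 stands highest in both panels, at 18922 with Sfpq and 14466 with Ago2, while SNORD15 lies far below the line at 3.66 with Sfpq and 7.42 with Ago2.

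In the Ago2 IP, too, the members made up a larger share of signal than in the input. They summed to 84241 in the Ago2 IP (0.859% of all small RNA signal) and 37828 in the input (0.518%). A ratio was given to 105 of 120, 1 of them passing only through the IP and 8 only through the input. The log2 ratios had a median of 0.49 and ran between -3.65 and 3.21. At least 2-fold above input were 40 members, where 16.6% of the 781 small RNAs with a ratio were, and at least 2-fold below were 23, where 49.3% of all were. The median over all 781 was -0.95. Mature miRNAs, which Ago2 binds, had a median of 0.49, box H/ACA snoRNAs -2.09, the Gas5 snoRNAs 1.46 and tRNAs -4.64. Scaled to total signal, which lowers every Ago2 ratio by 0.43, the members' median was 0.06, with 22 above and 30 below 2-fold, and centred on all small RNAs it was 1.44, with 62 above and 9 below.

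SNORD101 again stood highest, with 14466 in the Ago2 IP, against 1563 in the input (3.21 ± 0.023), or 17.2% of the members' IP signal, against 4.13% of their input. SNORD18 at chr9:64175048-64175115 had 4478 in the IP, against 682 in the input (2.72 ± 0.036). SNORD53 at chr17:71640879-71640956 had 490.3 in the IP, against 81.7 in the input (2.59 ± 0.104). All 3 lay far above the input. SNORD87, in an intron of Snhg6 and a guide for 28S rRNA, had 317 in the IP, against 57.0 in the input (2.48 ± 0.126). SNORD121A at chr4:41211498-41211586 had 725 in the IP, against 139.7 in the input (2.38 ± 0.08). SNORD110, in an intron of Nop56 and a guide for 18S rRNA, had 1763 in the IP, against 387 in the input (2.19 ± 0.049). SNORD43 had 7364 in the IP, against 2139.8 in the input (1.78 ± 0.021), the second highest IP signal of all members.

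SNORD15 was lowest with Ago2 as well, with 7.42 in the Ago2 IP, against 93.0 in the input (-3.65 ± 0.283). SNORD94 had 6.85 in the IP, against 85.0 in the input (-3.63 ± 0.295). SNORD89, an orphan of 110 bases in the non-coding gene Gm15832, had 27.9 in the IP, against 249 in the input (-3.16 ± 0.149). These 3 members had only 0.0798, 0.0805 and 0.112 of the input signal in the IP. The orphan SNORD83 at chr17:35242678-35242754, in Ddx39b, had 6.14 in the IP, against 44.0 in the input (-2.84 ± 0.323). SNORD22 had 42.2 in the IP, against 197 in the input (-2.22 ± 0.129).

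Set against each other, the Sfpq and Ago2 ratios of most members were close. The difference of the log2 ratios, Sfpq minus Ago2, had a median of 0.18 over the 103 members with both ratios. In 94 of them it was under 2-fold. The Sfpq ratio was at least 2-fold above the Ago2 ratio in 5 members, where 33.7% of all 748 small RNAs with both ratios were, and at least 2-fold below in 4, where 4.14% of all were. The median over all 748 was 0.47, over box H/ACA snoRNAs 0.83, over tRNAs 1.58 and over mature miRNAs 0.01. With each group scaled to total signal the members' median was -0.03, with 3 above and 8 below 2-fold. Centred on all small RNAs it was -0.20, with 2 above and 11 below. Both ratios rest on the same 3 input samples, so no overlap of the calls is given.

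The members that differed most were an orphan, a Zfas1 snoRNA and the SNORD62 copies. SNORD89 (chr1:39548745-39548854, minus strand) had 142 in the Sfpq IP, against 218 in its input, while it had 27.9 in the Ago2 IP, against 249 in its input. The difference was 2.54 ± 0.153 on the log2 scale. Its sequence and those of the 3 SNORD12 copies of Zfas1 are shown since they lay highest or close to highest in this difference, with capitals for TGATG and CTGA as above, all from GRCm38.
SNORD89: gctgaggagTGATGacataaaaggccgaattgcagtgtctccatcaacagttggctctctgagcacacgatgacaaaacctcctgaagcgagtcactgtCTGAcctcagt
SNORD12, chr2:167063473-167063565: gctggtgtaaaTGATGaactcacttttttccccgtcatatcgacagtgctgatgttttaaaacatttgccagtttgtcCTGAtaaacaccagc
SNORD12, chr2:167064998-167065086: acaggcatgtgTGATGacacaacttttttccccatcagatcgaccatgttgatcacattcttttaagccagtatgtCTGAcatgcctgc
SNORD12, chr2:167065276-167065365: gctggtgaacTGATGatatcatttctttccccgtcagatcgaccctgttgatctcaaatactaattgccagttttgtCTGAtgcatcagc

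SNORD12 at chr2:167064998-167065086, on the plus strand, had 604 in the Sfpq IP, against 142 in the input, and 183 in the Ago2 IP, against 165 in the input. The difference was 1.94 ± 0.062. The other two Zfas1 copies had differences of 0.99 ± 0.019 and 0.99 ± 0.044, so all 3 were higher with Sfpq. SNORD56 had a difference of 1.37 ± 0.055, with 591 in the Sfpq IP, against 264 in the Ago2 IP. SNORD83 at chr17:35242678-35242754 had a difference of 1.12 ± 0.372 and SNORD100, a guide for 18S rRNA beside SNORD101 in Rps12, one of 1.05 ± 0.08. SNORD100 had 243 in the Sfpq IP, against 154 in the input, and 136 in the Ago2 IP, against 178 in the input. At the other end, the 3 SNORD62 copies had differences of -1.63, -1.59 and -1.58, each with a counting error of 0.16 to 0.167. They had 27.1 to 29.6 in the Sfpq IP, against 95.8 to 104 in the Ago2 IP. SNORD88 at chr7:44249852-44249941 had 24.3 in the Sfpq IP, against 108 in the input, and 69.03 in the Ago2 IP, against 127 in the input, a difference of -1.28 ± 0.181. SNORD63, in an intron of Hspa9, came next at -0.96 ± 0.252.

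**Figure D2:**
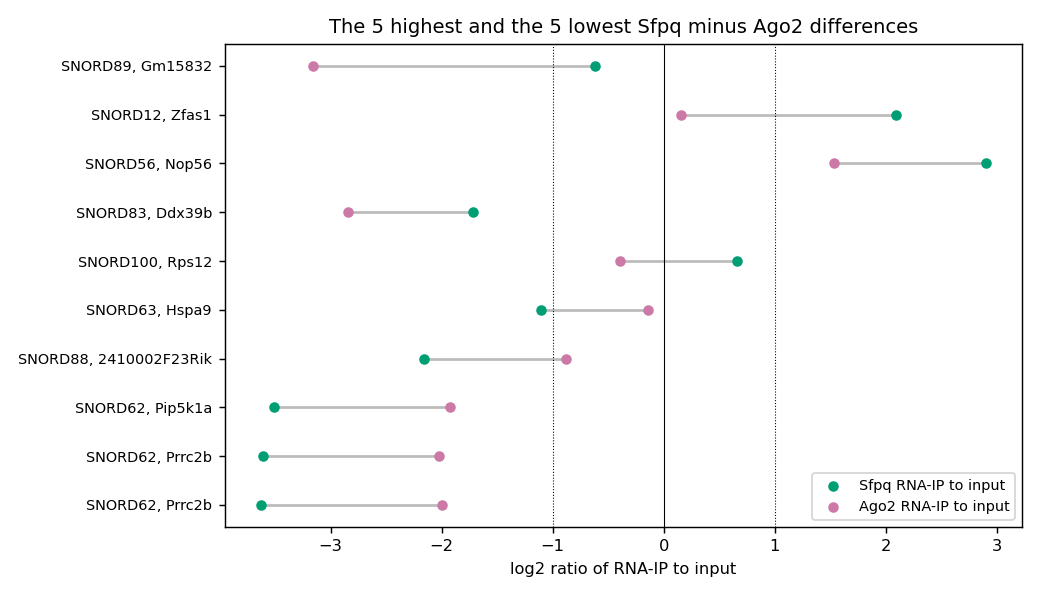
Log2 ratio of IP to input (horizontal axis) for the 5 snoRNAs with the highest and the 5 with the lowest difference between Sfpq (green) and Ago2 (pink), with the host gene after each name. Solid and dotted vertical lines mark equal values and 2-fold. SNORD89 lies at -0.62 with Sfpq and -3.16 with Ago2, and the 3 SNORD62 copies lie between -3.63 and -3.51 with Sfpq and between -2.02 and -1.93 with Ago2.

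The medians were higher in the shorter length classes, though not within every class of host gene. The 18 members under 70 bases had a median log2 ratio of 1.45 with Sfpq and 1.11 with Ago2, with 15 and 12 at least 2-fold above input and 0 at least 2-fold below in either. Members of 70 to 79 bases had medians of 0.65 with Sfpq and 0.49 with Ago2, and those of 80 to 89 bases -0.33 and -0.45. The 16 members of 90 bases and over had medians of -0.98 with Sfpq and -0.65 with Ago2, and 3 of them were at least 2-fold above input in each IP, while 8 with Sfpq and 5 with Ago2 were at least 2-fold below. Over single members, Spearman's rho between length and ratio was -0.39 over 103 members with Sfpq and -0.36 over 105 with Ago2. GC content had similar values, -0.37 over 99 members and -0.35 over 101, and input signal 0.16 and 0.15. These are descriptions over members that share libraries, and the sequenced fragments' lengths were not given in the sources used here. The part of read length or of GC content in the ratios was not tested. Some steps within host classes went the other way. In ribosomal protein genes, members of 80 to 89 bases had medians of 1.74 over 3 with Sfpq and 1.52 over 4 with Ago2. Those include a SNORD33 entry that a miRNA entry inside it nearly equals in the IP, as given further on. The 8 ribosomal members under 70 bases had 1.32 and 1.02, and the 5 of 90 bases and over -1.20 and -0.88. In genes of snoRNP, nucleolar or translation proteins, the 7 members of 70 to 79 bases had 2.00 and 1.53. The 4 under 70 bases had 1.53 and 1.05. At 80 to 89 bases that class was low, with -0.85 over 10 with Sfpq and -1.03 over 11 with Ago2. Those include the Hspa8 members of 86 bases, which were low. The 2 members of 80 to 89 bases in non-coding hosts had 2.13 and 1.32, against 1.71 and 1.28 under 70 bases. Long members with high ratios were SNORD12 at chr2:167063473-167063565 (93 bases), SNORD12 at chr2:167065276-167065365 (90 bases) and SNORD88 at chr7:44250135-44250224 (90 bases). Short members with low ratios included both SNORD93 copies and SNORD45 at chr3:153910563-153910633 (71 bases), which had 13.0 in the Sfpq IP, against 36.0 in the input, and 16.05 in the Ago2 IP, against 41.7 in the input.

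**Figure D3:**
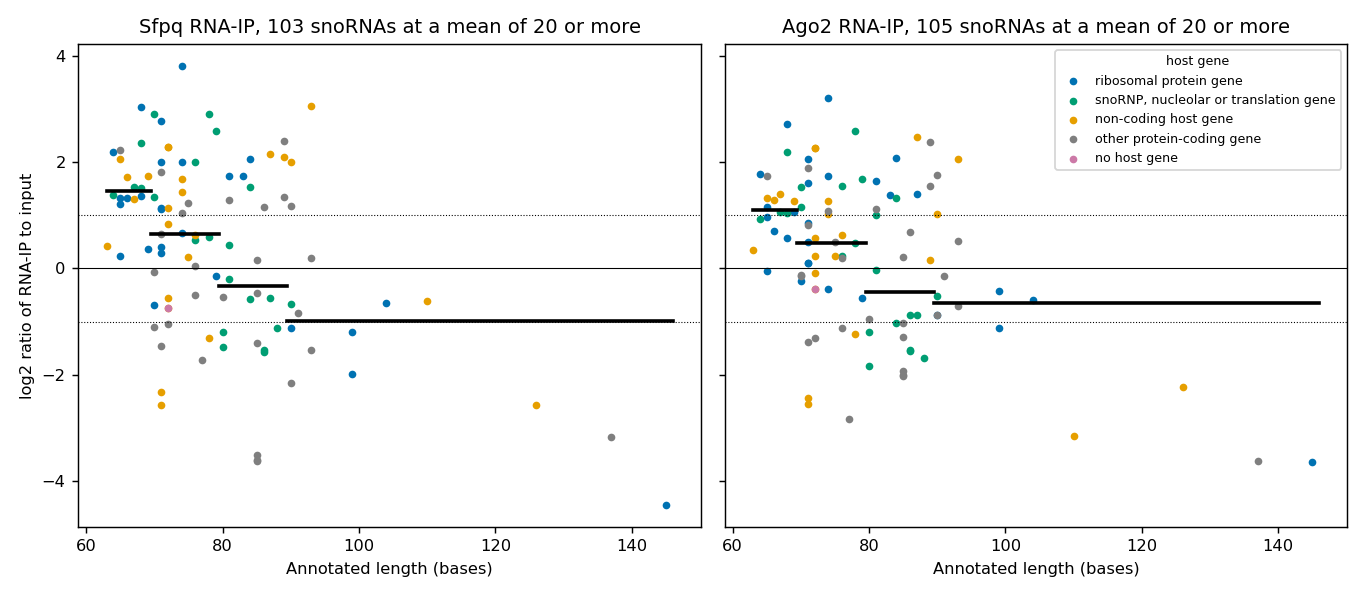
Log2 ratio of IP to input (vertical axis) against annotated length in bases (horizontal axis) for members at a mean of 20 or more, Sfpq on the left and Ago2 on the right, coloured by class of host gene. Black bars give the median of each length class. The medians stand at 1.45 and 1.11 under 70 bases and at -0.98 and -0.65 at 90 bases and over.

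By host gene, members in ribosomal protein genes had a median of 1.13 with Sfpq and 0.78 with Ago2, and those in non-coding hosts 1.22 and 0.60. Members in genes of snoRNP, nucleolar or translation proteins had medians of 0.57 and 0.49, and members in other protein-coding genes -0.46 and -0.14. Both rest on the fixed list given above. The 3 Hspa8 members, counted in the first, lay between -1.57 and -0.67 with Sfpq and between -1.55 and -0.52 with Ago2. Those in Eif4g1, Ppan and Tsr1, counted in the second, lay between 0.15 and 1.23 with Sfpq and between 0.21 and 0.51 with Ago2. Medians under another placement were not computed. The classes also differed in length, with a median of 71 bases in ribosomal protein genes, 72 in non-coding hosts and 85 in other protein-coding genes, and the part of length in the host difference was not tested. The ribosomal minus other protein-coding difference of the medians, 1.59 with Sfpq and 0.92 with Ago2, was 0.70 and 0.38 at a mean of at least 100. Among members of 70 to 79 bases, those in ribosomal protein genes had a median of 1.12 with Sfpq and 0.50 with Ago2, against -0.07 and -0.12 for those in other protein-coding genes (n = 11 each). At 80 to 89 bases the medians were 1.74 (n = 3) and 1.52 (n = 4) in ribosomal protein genes. They were -0.46 and -0.95 in other protein-coding genes (n = 11 each). The few ribosomal members include the SNORD33 entry that a miRNA entry inside it nearly equals in the IP. With Ago2 they also include the SNORD14 copy in Rps13, which passed the minimum only through its IP value. At 90 bases and over the classes did not stand apart in this way, with -1.20 and -0.88 in ribosomal protein genes (n = 5), against -1.19 and -0.42 in other protein-coding genes (n = 6). Within an intron or overlapping an exon made less difference, with medians of 0.52 for introns and 0.64 for exon overlap with Sfpq, and 0.50 and 0.42 with Ago2.

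A shared host gene did not mean a shared ratio. In the 27 hosts with at least 2 members with a ratio, the median range between the highest and lowest member was 1.85 on the log2 scale with Sfpq and 2.39 with Ago2, and in 10 of 27 with each protein members lay both above and below 2-fold. Over all members with a ratio, the quartiles were -0.74 and 1.70 with Sfpq and -0.88 and 1.32 with Ago2. Whether members of the same host were more alike than members of different hosts was not tested. Rpl4 holds 3 SNORD18 copies, guides for 28S rRNA, and 2 SNORD16 copies, guides for 18S rRNA. Its SNORD18 at chr9:64175048-64175115 had a ratio of 3.04 with Sfpq and 2.72 with Ago2, while SNORD16 at chr9:64176661-64176759 had -1.99 and -1.11. This SNORD16 copy had 17.1 in the Sfpq IP, against 67.7 in the input, and 36.8 in the Ago2 IP, against 79.8 in the input. Snhg1, a non-coding gene, held SNORD22 at -2.58 with Sfpq and -2.22 with Ago2 as its lowest. Its highest were SNORD29 at 2.06 with Sfpq and SNORD31 at 1.41 with Ago2. Gnl3 held SNORD69 at -1.49 with Sfpq and -1.85 with Ago2 and SNORD19B at 2.60 with Sfpq and 1.68 with Ago2. SNORD69 had 229 in the Sfpq IP, against 641 in the input, and 207 in the Ago2 IP, against 746 in the input. Ncl, the gene of nucleolin, held SNORD82 at 1.34 with Sfpq and 1.15 with Ago2 and SNORD20 at -1.20 with both. A few hosts were even, among them Rpl17, whose 3 SNORD58 copies lay between 1.22 and 1.33 with Sfpq and between 0.70 and 1.15 with Ago2, and Rpl7a, whose 2 SNORD36 copies had 2.00 each with Sfpq and 1.73 and 1.60 with Ago2.

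**Figure D4:**
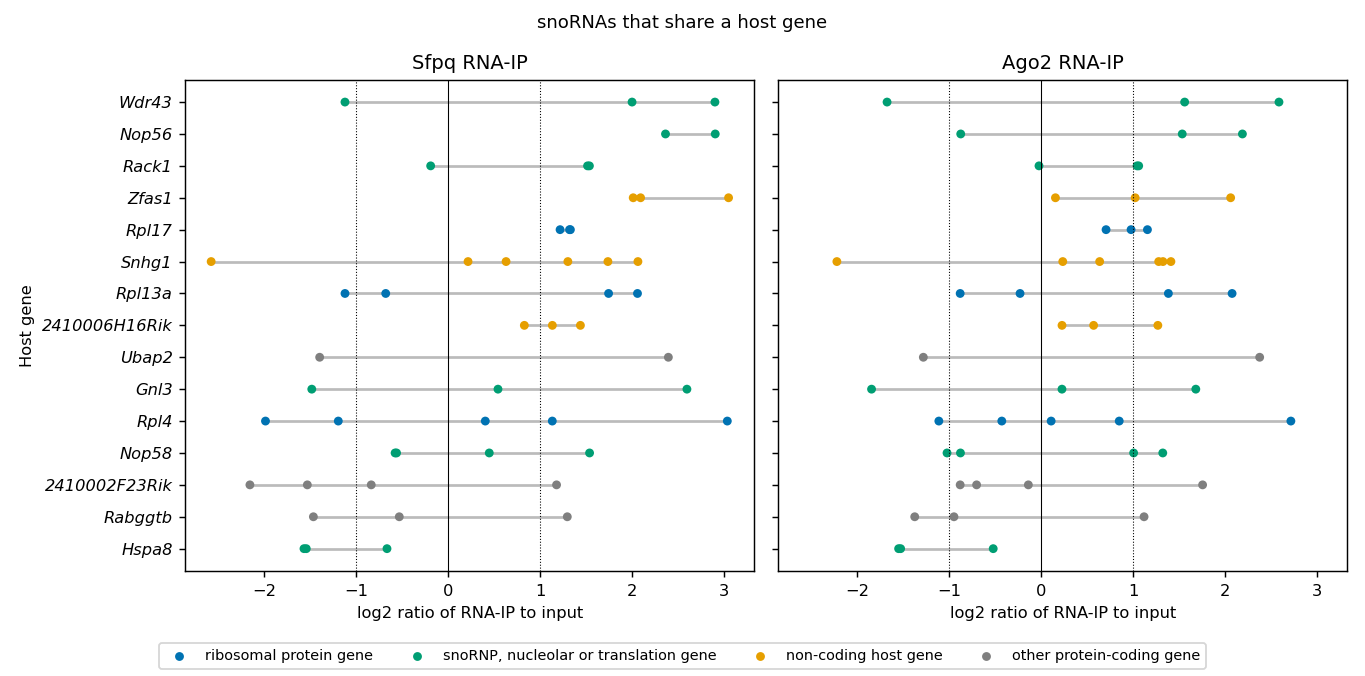
Log2 ratio of IP to input (horizontal axis) of the members of 15 host genes with 3 or more snoRNAs, Sfpq on the left and Ago2 on the right, with a grey line from the lowest to the highest member at a mean of 20 or more. Dotted lines mark 2-fold. Rpl4 spans -1.99 to 3.04 with Sfpq and -1.11 to 2.72 with Ago2, while Rpl17 spans 1.22 to 1.33 and 0.70 to 1.15.

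Rpl13a carries 4 members that are known in mouse from the response of cells to lipid and oxidative stress. SNORD33 at chr7:45126864-45126947 had 327 in the Sfpq IP, against 78.6 in the input, and 388 in the Ago2 IP, against 92.0 in the input. The ratios were 2.06 and 2.08. A miRNA entry inside it had nearly as much signal in both IPs, as given further on. The entry SNORD33 at chr7:45127382-45127464, which GENCODE names Snord32a, had ratios of 1.74 with Sfpq and 1.38 with Ago2. SNORD34 had -0.68 and -0.23, and SNORD35 at chr7:45126346-45126435 had -1.12 and -0.88. Only the entries named SNORD33 were thus above 2-fold, in both IPs.

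By target, as known from human, the 50 guides for 28S rRNA with a ratio had medians of 1.15 with Sfpq and 0.54 with Ago2, with 27 and 20 at least 2-fold above input. The 35 guides for 18S rRNA had medians of 0.54 and 0.49, with 15 above in each. A further 11 members were left without a target class, so both lists of guides may be incomplete. Of these 11, 7 had a ratio, with medians of 1.15 with Sfpq and 0.68 with Ago2. At a mean of at least 100, the difference of the medians, 28S minus 18S, was 0.21 with Sfpq and turned to -0.11 with Ago2. Ratios of 28S guides lay between -4.45 and 3.05 with Sfpq and between -3.65 and 2.72 with Ago2, and those of 18S guides between -3.63 and 2.90 and between -2.56 and 2.19. The snoRNAs of pre-rRNA processing, SNORD22 and SNORD14 copies, were low with medians of -1.56 over 4 with Sfpq and -1.53 over 5 with Ago2. Hspa8, a heat shock cognate gene, holds 3 SNORD14 copies. A pair of them differed at 2 of 86 positions and by at most 4.98% in value, so they may not be separate measurements. Of that pair, SNORD14 at chr9:40803583-40803668 had 258 in the Sfpq IP, against 752 in the input. It had 301 in the Ago2 IP, against 884 in the input. The SNORD14 copy in Rps13 stood apart with 20.6 in the Sfpq IP, against 11.1 in the input, and 33.8 in the Ago2 IP, against 12.9 in the input, and reached a ratio only in the Ago2 table (1.39 ± 0.279), through its IP value. The 2 guides for 5.8S rRNA, SNORD71 and SNORD96, had ratios of -0.46 and -0.19 with Sfpq and -1.03 and -0.03 with Ago2. The orphan SNORD90, in Rc3h2, had 16.8 in the Sfpq IP, against 16.6 in the input, and 13.5 in the Ago2 IP, against 19.3 in the input. The orphans held both SNORD101, the highest member, and SNORD89 and SNORD83, among the lowest with Ago2.

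Of the 78 names, 25 had 2 or more entries, 67 members in all. In the 22 of them with at least 2 ratios, the median range was 0.97 with Sfpq and 1.51 with Ago2. Entries of 1 name were often different RNAs, as in the 3 SNORD12 sequences above. Where sequences were equal or nearly so, reads can match several places, and how the authors' mapping split them is not stated, so the values of such copies are uncertain. SNORD50, a guide for 28S rRNA, had 5 entries of 72 bases each. Those at chr9:88521797-88521868 in Snhg5 and chr9:88857693-88857764 in 9330159M07Rik had the same sequence and the same values in every column, 1210.3 in the Sfpq IP, against 249 in the input, and 1400.3 in the Ago2 IP, against 290.1 in the input. Those at chr9:88521529-88521600 in Snhg5 and chr9:89075336-89075407, outside a host gene, shared another sequence and had 38.8 each in the Sfpq IP, against 65.0 and 64.8 in the input, and 57.7 each in the Ago2 IP, against 75.9 and 75.6 in the input. The fifth, at chr9:88598348-88598419 in 9430037G07Rik, had 43.7 in the Sfpq IP, against 64.3 in the input, and 70.6 in the Ago2 IP, against 74.96 in the input. The 3 sequences are shown because 1 base went with a ratio of 2.28 with Sfpq and 2.27 with Ago2 in the pair at chr9:88521797-88521868 and its match, against -0.75 and -0.39 at chr9:88521529-88521600. Capitals mark the positions that differ, counted from 1 at the 5′ end of the snoRNA. The change from the entry at chr9:88521529-88521600 to that at chr9:88521797-88521868 is C50A, and from chr9:88521529-88521600 to chr9:88598348-88598419 it is A43G.
SNORD50, chr9:88521797-88521868, minus strand: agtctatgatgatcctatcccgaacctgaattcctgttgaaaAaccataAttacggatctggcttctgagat
SNORD50, chr9:88521529-88521600, minus strand: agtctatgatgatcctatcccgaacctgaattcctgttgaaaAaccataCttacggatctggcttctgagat
SNORD50, chr9:88598348-88598419, minus strand: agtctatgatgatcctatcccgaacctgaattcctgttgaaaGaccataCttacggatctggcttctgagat

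The SNORD62 entries, by contrast, were alike in sequence and in value. The copies in introns of Prrc2b at chr2:32221970-32222054 and chr2:32225653-32225737 were identical, and that in Pip5k1a at chr3:95090625-95090709 differed from them by G54A. They had log2 ratios between -3.63 and -3.51 with Sfpq and between -2.02 and -1.93 with Ago2. Their sequences, from GRCm38 with the differing position in capitals, show how little separates these entries, which may not have been measured apart.
SNORD62, chr2:32221970-32222054, plus strand: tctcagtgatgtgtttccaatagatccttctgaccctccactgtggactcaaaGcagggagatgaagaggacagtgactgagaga
SNORD62, chr3:95090625-95090709, minus strand: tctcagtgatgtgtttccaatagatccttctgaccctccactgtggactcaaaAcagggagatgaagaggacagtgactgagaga

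Other copies lay apart. Of the SNORD88 entries in 2410002F23Rik, that at chr7:44250135-44250224 had 325 in the Sfpq IP, against 144 in the input, and 565 in the Ago2 IP, against 168 in the input, while that at chr7:44250450-44250542 had 78.6 in the Sfpq IP, against 227 in the input, and 164 in the Ago2 IP, against 267 in the input. The first was above the input and the second below it in both IPs. All 4 SNORD88 entries there had lower ratios with Sfpq than with Ago2, by 0.58 to 1.28 on the log2 scale. The 2 SNORD95 entries in Rack1, the gene of a ribosome-bound scaffold protein, had ratios of 1.54 and 1.52 with Sfpq and 1.06 and 1.04 with Ago2. SNORD59, in Atp5b, split, with 1.04 with Sfpq and 1.09 with Ago2 at chr10:128084143-128084216 and -1.05 and -1.31 at chr10:128085289-128085360. SNORD111 in Sf3b3, the gene of a splicing factor subunit, had 1.34 with Sfpq and 1.55 with Ago2 at chr8:110838528-110838616, and -0.51 and -1.12 at chr8:110842383-110842458. SNORD70 in Nop58 had 1.54 with Sfpq and 1.32 with Ago2 at chr1:59692509-59692592, and -0.56 and -0.88 at chr1:59691934-59692020. SNORD45 in Rabggtb had 1.29 with Sfpq and 1.12 with Ago2 at chr3:153911610-153911690, and -0.53 and -0.95 at chr3:153912125-153912204. In these 4 names 1 entry lay above its input and another below it in both IPs.

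Differences were smaller in other names. SNORD49 in 2410006H16Rik had 1.44 with Sfpq and 1.27 with Ago2 at chr11:62603077-62603150, and 0.83 and 0.23 at chr11:62603450-62603521. SNORD42 in Rpl23a had 0.37 with Sfpq and 1.05 with Ago2 at chr11:78183056-78183124, and 0.23 and -0.06 at chr11:78181299-78181363. SNORD73 in Rps3a1 had 1.36 with Sfpq and 0.57 with Ago2 at chr3:86138791-86138858, and 0.29 and 0.10 at chr3:86140618-86140688. The SNORD58 entry on chromosome 14, outside a host gene, had 2.97 in the Sfpq IP, against 22.9 in the input, and 3.26 in the Ago2 IP, against 26.9 in the input, unlike the 3 copies in Rpl17. SNORD121A at chr4:41203053-41203137 had -1.40 with Sfpq and -1.28 with Ago2, on the other side of input from the copy at chr4:41211498-41211586 in the same gene. The remaining entry, at chr4:41213772-41213857, had 22.2 in the Sfpq IP, against 7.24 in the input, and 21.0 in the Ago2 IP, against 8.44 in the input.

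**Figure D5:**
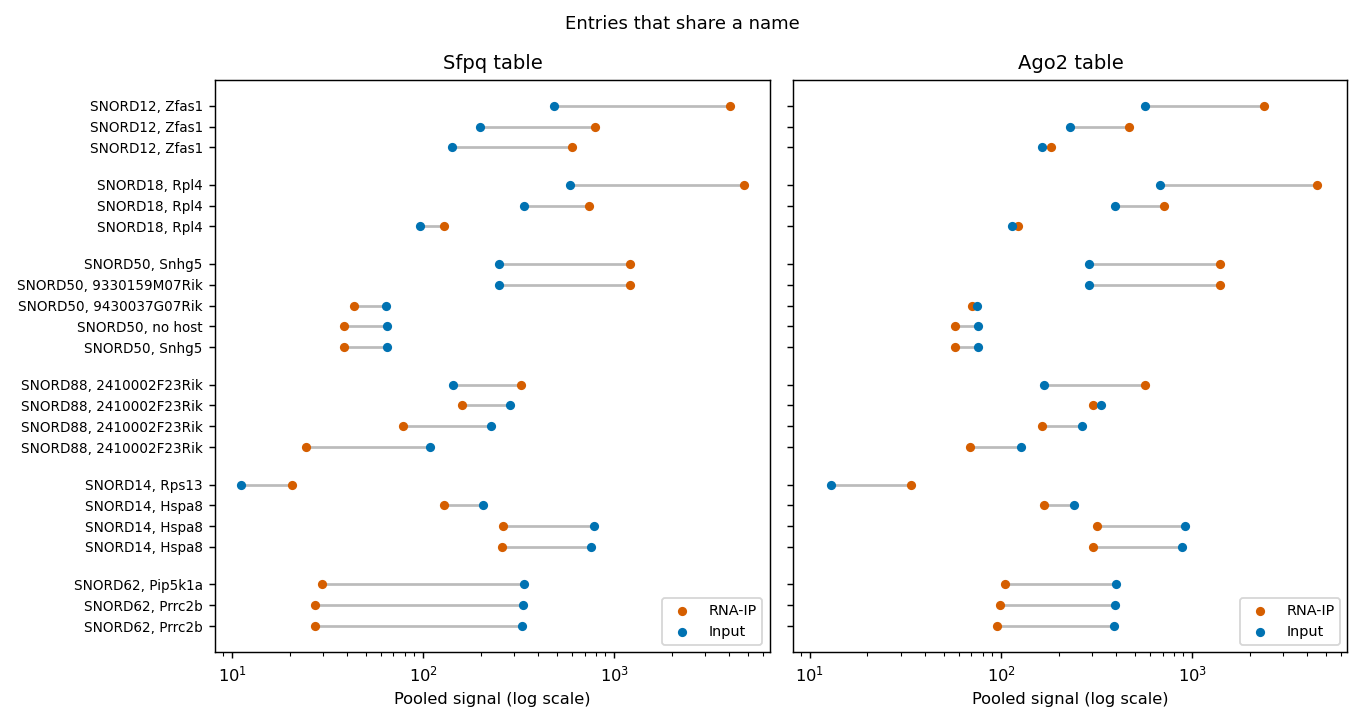
Pooled signal (horizontal axis, log scale) in the IP (orange) and the input (blue) for entries that share a name, with the host gene after each name, Sfpq table on the left and Ago2 table on the right. The SNORD12 entries lie above their input throughout, SNORD62 entries far below it, and SNORD50 entries fall into 2 sets, with 1210.3 or at most 43.7 in the Sfpq IP.

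A gene of the type miRNA in GENCODE was overlapped by 5 entries. The SNORD93 entry at chr5:23710991-23711061, among the lowest in both IPs, is there a gene of the type snoRNA with the name Mir3096, and is not among the 5. For 2 of the 5, mature miRNAs of RefSeq (GRCm38.p6) with values in the tables lay inside the snoRNA. They are shown because the short RNA lies within the snoRNA, and the entries of both may share reads. Capitals mark the miRNA bases, miR-5121 in SNORD33 and both arms of miR-677 in SNORD59, in GRCm38 sequence.
SNORD33, chr7:45126864-45126947, minus strand: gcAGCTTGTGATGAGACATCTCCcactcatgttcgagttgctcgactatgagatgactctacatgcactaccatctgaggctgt
SNORD59, chr10:128085289-128085360, plus strand: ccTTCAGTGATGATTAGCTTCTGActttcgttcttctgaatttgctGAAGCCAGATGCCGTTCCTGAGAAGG

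For SNORD33, the miR-5121 entry had 309.9 in the Sfpq IP, which is 94.7% of the SNORD33 value of 327, against 33.8 in the input, which is 43.0% of 78.6. In the Ago2 IP miR-5121 had 378, which is 97.5% of 388, against 39.7 in the input, which is 43.2% of 92.0. If the snoRNA entry includes the reads of the miRNA entry, which the sources used here do not state, what is left of SNORD33 is 17.3 in the Sfpq IP, against 44.8 in the input (log2 -1.37), and 9.63 in the Ago2 IP, against 52.3 in the input (-2.44). The direction of SNORD33 would then be the reverse of that given above. For SNORD59 the miR-677-5p entry nearly equalled the snoRNA entry, with 45.9 of 45.9 in the Sfpq IP and 94.4 of 95.1 in its input, and 40.6 of 44.5 in the Ago2 IP and 109.3 of 110.1 in its input. With the other arm added, the miRNA entries came to 62.5 in the Sfpq IP and 58.3 in the Ago2 IP, more than the snoRNA entry, so that value is not the sum of the arms.

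Members low in the input had few reads. SNORD23, an orphan in Nop53, was at 0 in both IPs, against 7.11 in the input of the Sfpq table and 8.25 in that of the Ago2 table. The 3 SNORD86 entries outside a host gene were at 0 in both IPs and under 2 in both inputs, while the SNORD86 entry in Nop56 had 13.1 in the Sfpq IP, against 23.8 in the input, and 15.0 in the Ago2 IP, against 27.6 in the input. The SNORD88 entry on chromosome 15 had 0 in the Sfpq IP, against 1.41 in the input, and 1.17 in the Ago2 IP, against 1.63 in the input. SNORD67, a guide for U6 snRNA, was below its input as well, with 11.0 in the Sfpq IP, against 27.8 in the input, and 6.44 in the Ago2 IP, against 32.5 in the input. For the SNORD86 entries outside a host gene and for the SNORD88 entry on chromosome 15, no difference was detectable at this depth.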

How the data were processed

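Small RNA libraries (3 Sfpq RNA-IP, 3 Ago2 RNA-IP and 3 input, 9 in all) were sequenced on SOLiD. Per the submitters' processing notes, cutadapt and mm10 were used, and the study's methods name the omiRas platform. The labels and the methods differ in library kit and PCR cycles. The signal in the tables the authors deposited is normalised and pooled over the 3 libraries of a group, with the input scaled anew in each table (1.166 times higher for these snoRNAs in the Ago2 table, by the median). Columns with the authors' own fold changes, p-values and false discovery rates, and their list of enriched RNAs, were not used.

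Log2 ratios of RNA-IP to input were recomputed for RNAs at a mean of at least 20 in pooled signal, which is stricter than the minimum of 20 reads in the study's methods, and at least 2-fold was counted. Reads behind a value came from the 3 step sizes on which all values under 2 lay (tolerance 0.0005), which gave counting errors. Python 3.11.15, pandas 2.3.3, NumPy 2.4.6 and matplotlib 3.10.9 were used, and the ratio step was tested on simulated data. Hosts and sequences came from GENCODE vM21 and GRCm38, miRNAs from RefSeq, targets from knowledge of human snoRNAs. Members were named by rule: the 8 highest and 8 lowest members per RNA-IP, the 5 highest inputs, the 5 highest and 5 lowest differences, names with copies, the small target classes and members at 0, with further members of a host named as its ends. The members and lists were chosen with earlier results of these data known. Other minimums, pseudocounts, scalings and folds were tried, and copies were also summed. Members with no values of their own in the text enter only counts and medians.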

Additional observations from a re-analysis of the deposited data

How the results depend on the processing

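The deposited values are pooled over libraries and a ratio without replicates cannot be tested, so leaving out single libraries was not run. No paired analysis was possible because the tables hold 1 pooled value per group. Scaled to total signal, the Sfpq median turned to -0.0374 with 27 members above and 37 below 2-fold, the Ago2 median was 0.0598 with 22 above, and the Sfpq minus Ago2 median turned to -0.0250 with 3 above and 8 below. Centred on all small RNAs, the Sfpq median was 1.16 with 11 below, the Ago2 median 1.44 with 62 above and 9 below, and the median difference turned to -0.20 with 2 above and 11 below. With input of at least 20 the medians were 0.48 for Sfpq and 0.23 for Ago2, with no minimum 0.37 and 0.22, and with a minimum mean of 100 they were 1.30 and 0.96, with 12 members below in each. Copies of 1 name summed gave 31 above and 13 below with Sfpq, 26 above and 15 below with Ago2, and 1 member with a difference below. At 4-fold, 19 were above and 9 below with Sfpq, 11 above and 8 below with Ago2, and the difference had 1 above and 0 below. At 1.5-fold the difference had 18 above and 11 below, and a pseudocount of 10 left 3 above. Ribosomal minus other protein-coding hosts was 1.59 with Sfpq and 0.92 with Ago2, and at a minimum mean of 100 it was 0.70 and 0.38. It was 0.78 with Ago2 at an input of at least 20 and 1.5 with Sfpq at a pseudocount of 10. Members under 70 bases minus those of 90 and over gave 2.43 with Sfpq and 1.75 with Ago2, against 2.15 and 1.59 at a minimum mean of 100 and 2.58 and 1.66 with no minimum. With Sfpq it was 2.58 at an input of at least 20 and 2.17 at a pseudocount of 10. Guides for 28S minus 18S rRNA gave 0.61 with Sfpq and 0.05 with Ago2, against 0.21 and -0.11 at a minimum mean of 100, and 0.28 with Ago2 and no minimum. The other 91 of 142 values moved less. Among these, differences between classes could not move under either scaling, which shifts all ratios alike. Of 1142 ratios of single members under other settings, 800 moved less than their counting error, 342 moved more and 0 changed sign from past 2-fold. Settings that only choose which members are kept leave each ratio as it is, so many of the 800 could not move. No shift or pseudocount used could change the sign of a ratio past 2-fold, so that count shows nothing. The cause was not tested beyond what each setting leaves out. Counting error is the only error these files give. A signal equal to the minimum stands for some 50 to 80 reads. The minimum is on the mean of IP and input, so either value alone can rest on fewer reads. SNORD15 had about 12.5 reads in the Sfpq IP and 29.1 in the Ago2 IP.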
